A study of Mus musculus with 4 samples.

Results

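The collagen genes of the mouse urogenital sinus (UGS) were examined as 1 family. Its members were the 41 of 25819 rows of the deposited expression table whose symbol is Col followed by a number, the letter a and a number, and they were sorted by the structure of the protein into 9 fibrillar chains (types I, II, III, V and XI), 6 basement membrane chains (type IV), 4 beaded filament chains (type VI), 9 FACIT chains (fibril-associated collagens with interrupted triple helices) and 13 others. The study asked how gene expression differs when *Tbx18*, a T-box transcription factor of the mesenchyme around the prostate buds, is missing. Whole UGS was dissected from male embryos at the embryonic stages E16.5 and E18.5, from Tbx18Gfp/Gfp mutants, which are homozygous for a *Tbx18* null allele with a GFP knock-in and lack the factor in every cell, and from wild type littermates, all on a B6C3-F1 hybrid background. RNA of 3 embryos of a genotype and stage was pooled into 1 library, which gave 4 libraries in all. There was therefore no replicate, no test between genotypes or stages could be made, and every difference below compares 2 libraries.

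Collagens are secreted proteins built from 3 polypeptide chains, each with a long repeat that begins with glycine and has 2 further amino acids, often proline and hydroxyproline, so that the chains can wind into a triple helix. Fibrillar collagens assemble into the cables that give connective tissue its tensile strength, type IV forms the sheet of basement membranes under epithelia and around muscle cells and vessels, type VI forms fine filaments close to cells, and FACITs sit on the surface of the fibrils. In the developing prostate the mesenchyme that surrounds the epithelial buds lays down this matrix and gives rise to fibroblasts and smooth muscle. Because whole UGS was used, fewer cells of a type and less RNA per cell cannot be told apart in these values.

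Values are FPKM, read numbers scaled to the length of the transcript and to the depth of the library, and 4 values given together are in the order wild type and Tbx18Gfp/Gfp at E16.5, then wild type and Tbx18Gfp/Gfp at E18.5. The libraries held an estimated 64000000, 55700000, 29000000 and 52400000 mapped reads, so that the E18.5 wild type library was the shallowest. It also stood apart in level: it had the lowest of the 4 values in 63.7% of the 15023 rows that reached 1 FPKM in some library, and in 34 of the 39 collagen chains that did so. Ratios were taken without a pseudocount where at least 1 library of a pair reached 1 FPKM and are given on the log2 scale, with 95% intervals that cover counting error only. Over the rows that reached 1 FPKM in both libraries the median log2 ratio of mutant to wild type at E16.5 was 0.01 and at E18.5 0.29, and that of E18.5 to E16.5 was -0.33 in wild type and -0.06 in the mutant, so ratios that involve E18.5 wild type are also given relative to that median. Of the UGS markers, *Hoxd13*, *Shh* and *Foxa1* were between 14.4 and 67.4 FPKM in every library. *Tbx18* itself had 3.47, 2.50, 3.16 and 2.93 FPKM, from which transcript of the GFP allele and of an intact gene cannot be told apart.

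The fibrillar class stands apart by the length of its repeat in the coding sequences, while the other classes overlap in it. The codon for glycine is GGN, where N is any base, and the longest run of back-to-back units of GGN and 2 other codons was counted in the reading frame of each chain (mouse transcripts of GENCODE vM21, GRCm38; positions count from the A of the ATG; coding strand only). The first 24 codons of that run are shown for the 3 most abundant chains, for *Col4a1* as the leading basement membrane chain, for *Col12a1*, the most abundant FACIT chain in both wild type libraries, and for *Col8a2* and *Col10a1*, the chains with the largest differences between genotypes. The glycine codon that opens each unit of the run is in capitals.

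Col1a1: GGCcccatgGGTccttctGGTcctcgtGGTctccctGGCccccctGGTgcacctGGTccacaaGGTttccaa
Col1a2: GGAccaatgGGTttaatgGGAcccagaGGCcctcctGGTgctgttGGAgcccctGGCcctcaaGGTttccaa
Col3a1: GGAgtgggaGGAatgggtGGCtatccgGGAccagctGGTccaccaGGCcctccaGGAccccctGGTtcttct
Col4a1: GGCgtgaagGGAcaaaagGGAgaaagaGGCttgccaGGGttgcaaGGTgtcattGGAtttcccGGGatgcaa
Col12a1: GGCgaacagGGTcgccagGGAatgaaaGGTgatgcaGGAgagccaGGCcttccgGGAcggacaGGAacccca
Col8a2: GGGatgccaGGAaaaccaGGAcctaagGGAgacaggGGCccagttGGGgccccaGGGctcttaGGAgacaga
Col10a1: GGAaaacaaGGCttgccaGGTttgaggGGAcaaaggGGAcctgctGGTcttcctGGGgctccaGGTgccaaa

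All of these stretches keep the glycine codon in step, and what differs is how long the run goes on. It held 338 units in *Col1a1*, 339 in *Col1a2* and 344 in *Col3a1*, and between 337 and 344 in the 9 fibrillar chains, without a break. The type IV chains broke it after 39 to 66 units. In *Col4a1* the longest run held 40 units, from base 127, and its end, at bases 451 to 522, is shown because an interruption, a feature of type IV chains, falls there, after the last codon in capitals.

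Col4a1, end of the run: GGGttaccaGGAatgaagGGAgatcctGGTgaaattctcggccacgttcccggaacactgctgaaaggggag

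The type VI chains had runs of 42 to 87 units, with 87 in both *Col6a1* and *Col6a2*. Among the FACITs the run was 32 units in *Col12a1*, *Col14a1* and *Col20a1*, in which most of the protein is not collagenous, 52 in *Col16a1*, 57 in *Col19a1* and 113 in the 3 type IX chains and *Col22a1*. *Col24a1* and *Col27a1*, a separate branch of fibrillar chains that is listed with the others here, had 216 and 217 units. The remaining others had from 28 units in *Col28a1* to 75 in *Col7a1*. A cutoff of 28 units is the shortest value among the members themselves, so all 41 chains reach it by construction. At that cutoff a run was also found in 10 (0.049%) of the 20400 other symbols with a transcript. They are *C1qb*, *C1qtnf2*, *C1qtnf7*, *C1qtnf9*, *Colec12*, *Colq*, *Gldn*, *Marco*, *Scara3* and *Sftpd*, proteins with a collagen-like stretch.

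**Figure D1:**
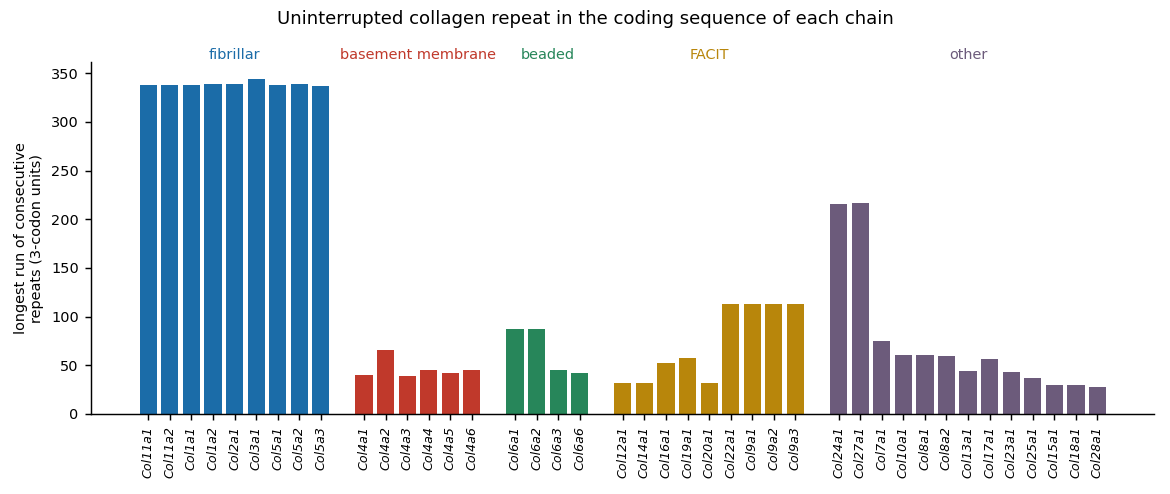
Longest uninterrupted run of 3-codon units that begin with a glycine codon, in units (y axis), for each of the 41 collagen chains (x axis), coloured by class. The 9 fibrillar chains reach 337 to 344 units, the type IV chains 39 to 66.

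The interstitial fibril chains dominated. *Col3a1*, *Col1a1* and *Col1a2*, the chains of types III and I, made up 61.7%, 62.1%, 66.3% and 65.9% of the summed collagen FPKM in the 4 libraries, and the whole family 0.870%, 0.841%, 0.896% and 0.946% of all FPKM. The fibrillar class as a whole held 67.6%, 67.6%, 71.5% and 71.1% of the collagen FPKM, type VI 13.9%, 13.9%, 14.4% and 13.0%, type IV 8.60%, 8.57%, 6.66% and 7.30%, the FACITs 5.50%, 5.17%, 4.05% and 4.97%, and the others 4.49%, 4.70%, 3.45% and 3.63%. The order of the classes was the same in every library. *Col4a3* and *Col19a1*, which did not reach 1 FPKM, had 0.624 to 0.890 and 0.236 to 0.462 FPKM, so 39 chains remained. The scarcest value among all members, *Col10a1* in E18.5 wild type, rested on an estimated 35 reads.

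**Figure D2:**
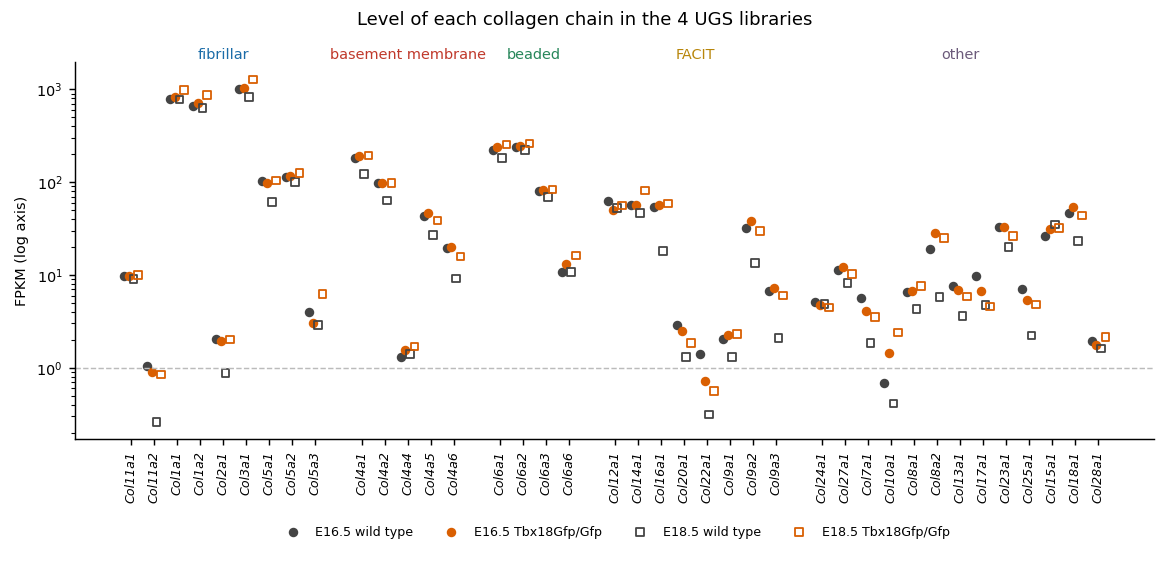
FPKM on a log axis (y) of the 39 collagen chains with at least 1 FPKM in any library (x), by class; filled circles are E16.5 and open squares E18.5, grey wild type and orange Tbx18Gfp/Gfp. Points of a chain lie close together next to the distance between chains, and the grey square of E18.5 wild type is the lowest point in 34 of the 39 chains.

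At E16.5 the collagen chains differed little between mutant and wild type. Of 39 chains tested 25 were higher and 14 lower in Tbx18Gfp/Gfp, the median log2 ratio was 0.04 against 0.01 over all rows, and *Col10a1* alone was at least 2-fold higher, beside 0.481% of the 14761 rows tested. No chain was 2-fold lower, beside 1.17% of rows. At 1.5-fold *Col22a1* was the 1 chain lower, against 2.72% of rows, and *Col10a1* the 1 chain higher, against 1.44%. Single chains beside such shares do not set the family apart from other genes. With library FPKM sums made equal the median turned to -0.06, so the direction of the family as a whole at this stage depends on the scaling.

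At E18.5 most chains were higher in the mutant library. Of 37 chains tested 34 were higher (24 with library FPKM sums made equal), beside 69.5% of all rows, with a median log2 ratio of 0.63 against 0.31 over all rows. *Col10a1*, *Col8a2*, *Col16a1*, *Col9a3*, *Col2a1*, *Col9a2*, *Col25a1* and *Col5a3* were at least 2-fold higher, which is 8 of 37 chains where 15.1% of the 14733 rows were, and 20 were at least 1.5-fold higher, where 33.2% of rows were. No chain was 2-fold lower, beside 2.89% of rows. *Col15a1*, *Col24a1* and *Col17a1* were the 3 with a ratio below 0, at -0.13, -0.12 and -0.05. Relative to the median of all rows 29 chains were higher and 8 lower, and *Col10a1*, *Col8a2*, *Col16a1* and *Col9a3* stayed at least 2-fold higher, where 8.19% of rows did.

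The comparison turns on the E18.5 wild type library. With the E16.5 wild type library in its place, an alternative chosen after the values were seen, the E18.5 mutant had a median log2 ratio of 0.05 over 39 chains, *Col10a1* remained the 1 chain at least 2-fold higher, where 1.23% of rows were, and *Col17a1* and *Col22a1* were at least 2-fold lower, where 1.28% of rows were. Genotype and the low level of that library cannot be told apart at E18.5.

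**Figure D3:**
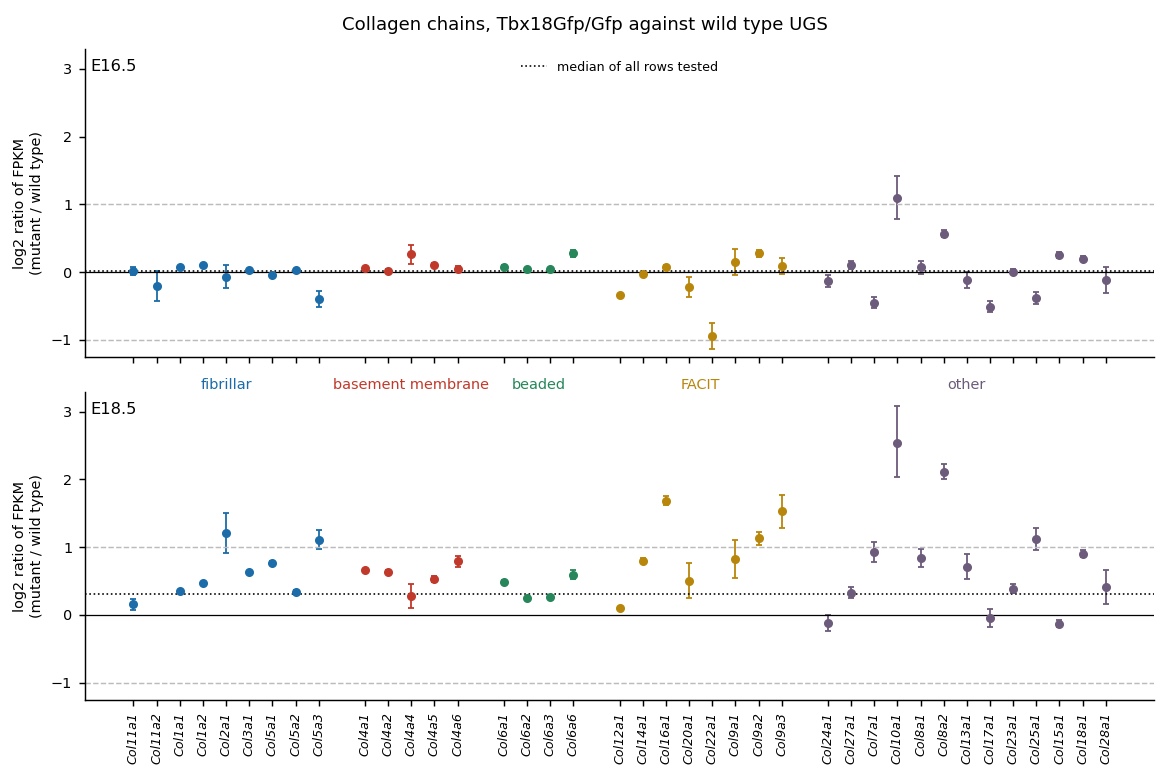
log2 ratio of FPKM, Tbx18Gfp/Gfp over wild type (y), for each collagen chain (x) at E16.5 (top) and E18.5 (bottom), coloured by class; bars are 95% counting intervals, the dotted line is the median of all rows tested and dashed lines mark 2-fold. At E16.5 most chains lie near 0 (31 of 39 are below it with library sums made equal), and at E18.5 34 of 37 lie above 0 (24 of 37 with library sums made equal), with Col10a1 and Col8a2 highest.

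Between the stages nearly all chains were lower in wild type as deposited, while in the mutant higher and lower chains were mixed. The 2 comparisons share no library. In wild type 36 of 38 chains were lower at E18.5 than at E16.5 (25 with library sums made equal), where 27.7% of rows were higher, with a median log2 ratio of -0.61 against -0.35 over all rows. At least 2-fold lower were 13 of the 38 chains, where 16.8% of the 14807 rows were, and relative to the median of all rows 7 chains, where 8.23% of rows were. None was 2-fold higher, where 2.7% of rows were. *Col15a1*, at 0.43 (95% counting interval 0.37 to 0.48), and *Col4a4*, at 0.10 (95% counting interval -0.07 to 0.28), were the 2 higher. In Tbx18Gfp/Gfp 22 of 37 chains were higher and 15 lower, where 35.3% of the 14713 rows were higher. As deposited the median was 0.03 against -0.06 over all rows. With library sums made equal 20 chains were higher and 17 lower, with a median of 0.008. Of the 13 chains outside the named classes 9 were lower in the mutant as deposited. *Col5a3* was the 1 chain at least 2-fold higher, where 1.35% of rows were, and none was 2-fold lower, where 0.571% were. The difference between the genotypes in these stage ratios could not be tested with 1 library each. In wild type, stage and the low level of the E18.5 library cannot be told apart.

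**Figure D4:**
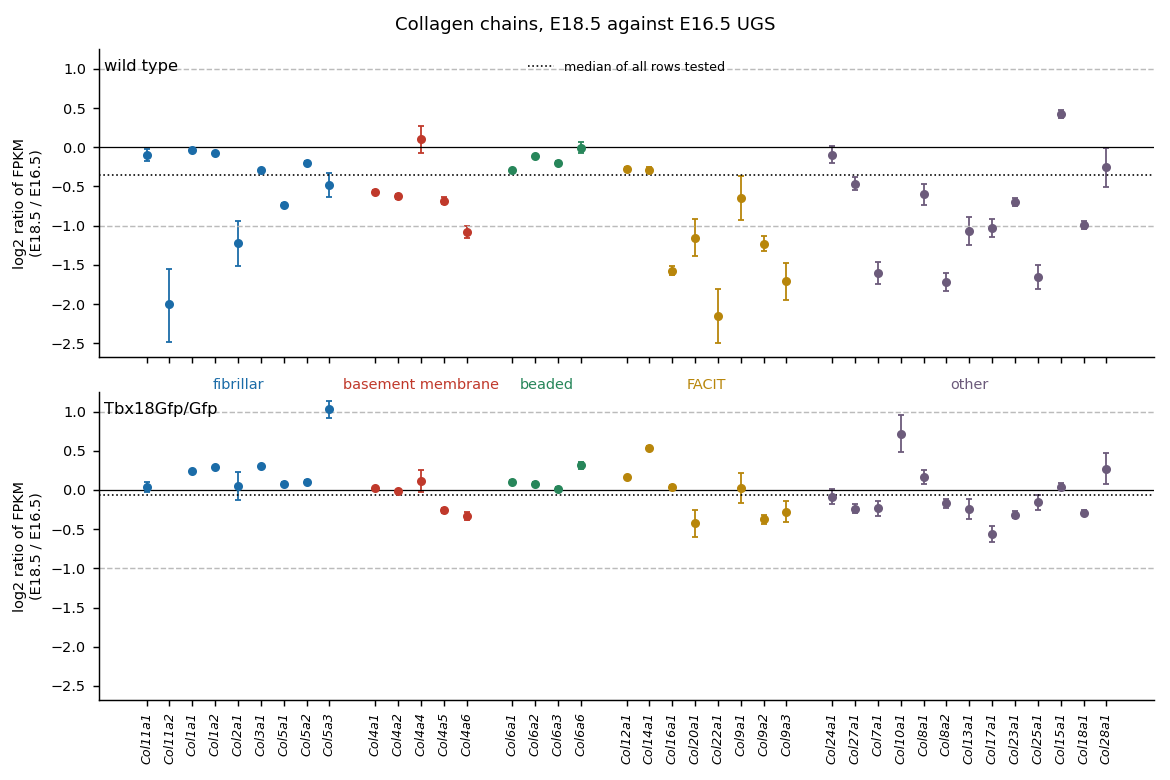
log2 ratio of FPKM, E18.5 over E16.5 (y), for each collagen chain (x) in wild type (top) and Tbx18Gfp/Gfp (bottom), coloured by class; bars are 95% counting intervals, the dotted line is the median of all rows tested and dashed lines mark 2-fold. In wild type 36 of 38 chains lie below 0 (25 of 38 with library sums made equal), while in the mutant all 8 fibrillar chains tested lie above 0. Over all rows 35.3% were higher at E18.5 in the mutant, and Col11a2, not tested there, was at -0.10.

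Among the fibrillar chains, *Col3a1*, the single chain of type III collagen, had 1013, 1037, 826 and 1278 FPKM (chromosome 1 from 45368383 to 45406551 in the coordinates of the deposited table, whose genome build is not named). *Col1a1* had 796, 835, 777 and 989 FPKM, and *Col1a2*, which joins it in type I collagen, had 664, 715, 630.2 and 875 FPKM. In all 3 genes the E18.5 mutant library was the highest and the E18.5 wild type the lowest, and the E16.5 libraries lay close together in between. The log2 ratios of mutant to wild type at E18.5 were 0.63 (95% counting interval 0.62 to 0.64) for *Col3a1*, 0.47 for *Col1a2* and 0.35 for *Col1a1*, against 0.03, 0.11 and 0.07 at E16.5. Relative to the E18.5 median of all rows they were 0.34, 0.19 and 0.06. With the trend over all rows with GC content and length of the transcript removed they were 0.35, 0.04 and -0.22. In the mutant the 3 genes were higher at E18.5 than at E16.5 by 0.30, 0.29 and 0.24 on the log2 scale.

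Type V collagen nucleates the fibrils and limits their width. *Col5a1* had 102, 98.8, 61.2 and 105 FPKM and *Col5a2* 115, 117, 99.7 and 126 FPKM, both far below types I and III. At E18.5 *Col5a1* was higher in the mutant by 0.77 (95% counting interval 0.74 to 0.80) and *Col5a2* by 0.33 (95% counting interval 0.31 to 0.36). With the trend with GC content and length removed these ratios were 0.35 and 0.25. *Col5a3*, a scarcer chain of the type, had 4.03, 3.05, 2.89 and 6.23 FPKM. It was lower in the mutant at E16.5, at -0.40 (95% counting interval -0.52 to -0.29), and higher at E18.5, at 1.11 (95% counting interval 0.97 to 1.25). Removal of that trend left 0.43 at E18.5. *Col5a3* was the 1 collagen that differed 2-fold between the stages in the mutant, at 1.03 (95% counting interval 0.92 to 1.14).

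Types II and XI, the fibrillar pair of cartilage, were low. *Col11a1* had 9.71, 9.79, 9.03 and 10.04 FPKM and was nearly level over the libraries, while *Col2a1* had 2.04, 1.95, 0.876 and 2.02 FPKM and *Col11a2* 1.05, 0.909, 0.262 and 0.846 FPKM, both lowest in E18.5 wild type. *Col2a1* was higher in the mutant at E18.5 by 1.20 (95% counting interval 0.92 to 1.498), and by 0.45 with the trend with GC content and length removed. *Col11a2* did not reach 1 FPKM in either E18.5 library. Of the cartilage markers, *Matn1*, *Matn3* and *Comp* were at most 0.178 FPKM in any library and *Acan*, the cartilage proteoglycan, had 0.140, 0.322, 0.140 and 0.430 FPKM, whereas *Sox9*, also a factor of epithelial and mesenchymal progenitors, had 11.3, 11.8, 16.7 and 8.26 FPKM. *Hapln1* had 3.69, 4.38, 5.84 and 3.70 FPKM and *Lect1* 2.55, 4.57, 3.41 and 3.54 FPKM. The summed level of the 7 cartilage markers found was 17.9, 21.4, 26.3 and 16.1 FPKM, most of it from *Sox9*. *Acan* was higher in the mutant at both stages. At E18.5 *Sox9* and *Hapln1* were lower in the mutant, at -1.02 and -0.66, and *Lect1* was nearly level, at 0.06. The part of cartilage cells in the result was not tested.

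As a class the 9 fibrillar chains had a median log2 ratio of 0.01 at E16.5. The 8 tested at E18.5 had 0.55, all of them higher. Of these 8, 7 were higher relative to the median of all rows and 5 with library sums made equal. In the mutant all 8 were higher at E18.5 than at E16.5, with a median of 0.17, and they were also all higher under library sums made equal, centring on the median, upper quartile scaling and subtraction of the trend with GC content and length of the transcript. In wild type all 9 were lower at E18.5, with a median of -0.29, which turned to 0.04 relative to the median of all rows and was near 0 with sums made equal.

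Type IV collagen is encoded by head-to-head gene pairs. *Col4a1* and *Col4a2*, which together form the common basement membrane network, lie on chromosome 8 from 11198423 to 11312826 and from 11312829 to 11449287, with 2 bases between them, and had 182, 189.8, 123 and 193 and 97.7, 98.9, 63.2 and 97.7 FPKM. Their E18.5 mutant and both E16.5 libraries were nearly level and the E18.5 wild type library was lower. The log2 ratios at E18.5 were 0.65 (95% counting interval 0.63 to 0.68) and 0.63 (95% counting interval 0.60 to 0.66), against 0.06 and 0.02 at E16.5. With the trend with GC content and length removed the E18.5 ratios were 0.18 and 0.01. *Col4a5* and *Col4a6*, the X-linked pair that serves smooth muscle and epithelial basement membranes, lie 1342 bases apart and had 43.1, 46.2, 26.8 and 38.6 and 19.4, 20.04, 9.19 and 15.9 FPKM. At E18.5 the mutant was higher by 0.53 and 0.79, and by 0.35 and 0.51 with that trend removed.

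*Col4a4*, a chain of the mature kidney filter, had 1.30, 1.56, 1.40 and 1.69 FPKM, and its neighbour *Col4a3*, 71 bases away, stayed below 1 FPKM. The class as a whole had a median log2 ratio of 0.06 at E16.5 and 0.63 at E18.5, with 5 of 5 chains higher at both stages. Relative to the median of all rows 4 of 5 were higher at E18.5, and with sums made equal 1 of 5 at E16.5. In the mutant *Col4a5* and *Col4a6* were lower at E18.5 than at E16.5, at -0.26 (95% counting interval -0.29 to -0.23) and -0.34 (95% counting interval -0.39 to -0.29), while *Col4a1* and *Col4a2* were at 0.03 and -0.02. Whether reads were counted by strand is not stated, so reads of such close neighbours may have been shared between them.

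Type VI collagen filaments are made of 3 chains. *Col6a1* had 225, 238, 183 and 256 FPKM, *Col6a2* 239.8, 248, 221 and 262 FPKM and *Col6a3*, the large chain, 80.2, 82.5, 69.6 and 83.5 FPKM. The spread over the 4 libraries was the smallest of the abundant classes, with a highest over lowest value of 1.40, 1.18 and 1.20. *Col6a6*, a chain that can take the place of *Col6a3*, had 10.7, 13.0, 10.7 and 16.2 FPKM and was higher in the mutant at E16.5 by 0.27 (95% counting interval 0.22 to 0.33) and at E18.5 by 0.59 (95% counting interval 0.53 to 0.66). The class had a median log2 ratio of 0.06 at E16.5 and 0.37 at E18.5, all 4 higher at both, but relative to the median of all rows at E18.5 it was 0.08 with 2 chains higher and 2 lower, and with sums made equal it turned to -0.05.

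The FACIT class held the widest range of E18.5 ratios outside the short-chain collagens. *Col16a1*, which lies on small fibrils and at cell contacts (chromosome 4 from 129725084 to 129776521), had 54.5, 57.4, 18.3 and 58.8 FPKM. The other 3 libraries were between 54.5 and 58.8 FPKM and E18.5 wild type was far below, so the log2 ratio was 1.69 (95% counting interval 1.63 to 1.75) at E18.5 and 0.08 at E16.5. Removal of the trend with GC content and length left 0.97 at E18.5. *Col14a1*, which regulates fibril growth in loose connective tissue, had 57.4, 56.4, 46.9 and 81.5 FPKM. Here the E18.5 mutant library stood above the other 3, with log2 ratios of 0.80 (95% counting interval 0.76 to 0.83) to wild type and 0.53 (95% counting interval 0.50 to 0.56) to the E16.5 mutant. *Col12a1*, its relative in tissue under tension, had 63.4, 50.05, 52.3 and 55.9 FPKM and was lower in the mutant at E16.5, at -0.34 (95% counting interval -0.36 to -0.32), and close to level at E18.5, at 0.10 (95% counting interval 0.07 to 0.12).

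Type IX collagen decorates type II fibrils in cartilage. *Col9a2* had 31.8, 38.4, 13.6 and 29.7 FPKM, *Col9a3* 6.78, 7.24, 2.08 and 5.99 FPKM and *Col9a1* 2.05, 2.27, 1.31 and 2.31 FPKM, and all 3 were lowest in E18.5 wild type. At E18.5 the mutant was higher by 1.53 (95% counting interval 1.29 to 1.77) for *Col9a3*, 1.13 for *Col9a2* and 0.82 for *Col9a1*. Removal of the trend with GC content and length left 0.76, 0.19 and 0.44. In these chains the ratio was 0.09, 0.28 and 0.15 at E16.5, and with the E16.5 wild type library as reference it was below 0 for *Col9a3* and *Col9a2*, at -0.18 and -0.10. *Col20a1* had 2.91, 2.49, 1.31 and 1.85 FPKM. *Col22a1*, a chain of junctions between muscle and tendon, had 1.39, 0.725, 0.314 and 0.564 FPKM and was the 1 chain at least 1.5-fold lower in the mutant at E16.5, at -0.94 (95% counting interval -1.13 to -0.76).

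Skeletal muscle markers were lower in the same library, with a summed level over 7 markers of 512, 201, 304 and 639 FPKM. All 7 were lower in the mutant at E16.5, with a median log2 ratio of -1.26. At E18.5 the higher sum came from *Acta1* and *Ckm*, and the other 5 were lower, for a median of -0.40. The tendon markers *Tnmd* and *Scx* had 2.05, 0.759, 0.682 and 2.21 and 5.31, 5.49, 1.23 and 4.14 FPKM. *Mkx*, the most abundant tendon marker in every library, had 11.96, 9.10, 9.91 and 8.15 FPKM. At E18.5 the log2 ratio of mutant to wild type was -0.28 for *Mkx*, against 1.70 for *Tnmd* and 1.75 for *Scx*. The summed level of the 3 tendon markers, with *Mkx*, was 19.3, 15.4, 11.8 and 14.5 FPKM. Their part in the *Col22a1* and *Col12a1* values was not tested. Over the FACIT class the median log2 ratio was 0.03 for 8 chains at E16.5 and 0.82 for 7 chains at E18.5, all 7 higher, with 0.53 and 6 of 7 higher relative to the median of all rows. In wild type all 8 were lower at E18.5 than at E16.5, 5 of them at least 2-fold, and 6 of 8 were lower relative to the median of all rows.

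The largest differences between genotypes were in the short-chain collagens, which form hexagonal lattices. *Col10a1*, the type X chain known from growth plate cartilage (chromosome 10 from 34109787 to 34116891), had 0.681, 1.46, 0.413 and 2.40 FPKM, and both mutant libraries were above both wild type libraries. Its log2 ratio was 1.10 (95% counting interval 0.78 to 1.42) at E16.5 and 2.54 (95% counting interval 2.04 to 3.08) at E18.5, or 2.14-fold and 5.81-fold, from an estimated 127, 237, 35 and 367 reads. With a pseudocount of 0.1 or 1 FPKM, or with library sums made equal, it was below 2-fold at E16.5. *Col8a2*, a type VIII chain of vessel and corneal basement membranes (chromosome 4 from 125964038 to 125991574), had 19.1, 28.2, 5.79 and 25.1 FPKM, and again both mutant libraries were above both wild type libraries. Its log2 ratio was 0.57 (95% counting interval 0.51 to 0.62) at E16.5 and 2.11 (95% counting interval 1.999 to 2.23) at E18.5. *Col8a1*, its partner, had 6.47, 6.79, 4.28 and 7.62 FPKM with ratios of 0.07 and 0.83. Mutant libraries above both wild type libraries were not particular to these chains. The same order was seen in *Col16a1*, *Col3a1*, *Col1a1* and *Col1a2*, among others, and E18.5 wild type was the lowest library in 34 of 39 chains.

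Of the cartilage markers, the 3 that reached 1 FPKM were higher in the mutant at E16.5, with a median log2 ratio of 0.25. At E18.5 *Sox9* was at -1.02, *Hapln1* at -0.66 and *Lect1* at 0.06, while *Acan* stayed under 1 FPKM in every library. The summed level of the 6 bone markers found was 16.4, 18.6, 18.8 and 13.9 FPKM and that of the 4 endothelial markers 76.3, 83.8, 78.5 and 80.3 FPKM. The part of any of these cells in the type X and type VIII values was not tested.

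The multiplexins, basement membrane collagens whose ends release angiogenesis inhibitors, went apart from each other. *Col18a1* had 46.6, 53.5, 23.4 and 43.7 FPKM and was higher in the E18.5 mutant by 0.90 (95% counting interval 0.85 to 0.95), whereas *Col15a1* had 26.1, 31.1, 35.1 and 32.1 FPKM and was the 1 chain highest in E18.5 wild type, with -0.13 (95% counting interval -0.18 to -0.08) at E18.5. At E16.5 both were higher in the mutant, by 0.20 and 0.25. Removal of the trend with GC content and length left E18.5 ratios of 0.23 for *Col18a1* and -0.61 for *Col15a1*. *Col7a1*, the anchoring fibril that ties epithelium to stroma, had 5.64, 4.13, 1.86 and 3.52 FPKM, lower in the mutant at E16.5 at -0.45 (95% counting interval -0.53 to -0.37) and higher at E18.5 at 0.92 (95% counting interval 0.77 to 1.07). *Col17a1*, the transmembrane chain of hemidesmosomes, had 9.67, 6.77, 4.73 and 4.58 FPKM, with ratios of -0.51 (95% counting interval -0.59 to -0.43) and -0.05 (95% counting interval -0.18 to 0.09), and it was lower at E18.5 than at E16.5 in both genotypes, at -1.03 in wild type and -0.56 in the mutant. The summed level of 8 epithelial markers was 459, 407, 368 and 524 FPKM. At E18.5 6 of the 8 were higher in the mutant, *Krt8* most, where 69.5% of rows were higher. *Trp63*, a factor of basal cells, was at -0.89 and *Cdh1* at -0.66. Relative to the median of all rows *Krt5* and *Epcam* were also lower, at -0.03 and -0.26, and the median of the 8 was 0.15. The part of epithelial cells in these values was not tested.

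The other transmembrane chains were lowest in E18.5 wild type. *Col23a1* had 32.7, 32.8, 20.2 and 26.4 FPKM, *Col13a1*, found at muscle and nerve contacts, 7.53, 6.94, 3.59 and 5.87 FPKM, and *Col25a1*, needed for motor nerves to enter muscle, 7.002, 5.37, 2.22 and 4.82 FPKM. *Col25a1* was lower in the mutant at E16.5, at -0.38 (95% counting interval -0.47 to -0.30), and higher at E18.5, at 1.12 (95% counting interval 0.96 to 1.28). *Col27a1* had 11.2, 12.05, 8.14 and 10.2 FPKM, *Col24a1* 5.16, 4.72, 4.83 and 4.45 FPKM and *Col28a1* 1.92, 1.77, 1.61 and 2.14 FPKM. *Col24a1* was the most level of these, with a highest over lowest value of 1.16. The 13 chains outside the named classes had a median log2 ratio near 0 at E16.5, with 7 higher and 6 lower, and of 0.71 at E18.5, with 10 higher and 3 lower, also relative to the median of all rows, but 7 and 6 with library sums made equal.

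Ratios between chains of 1 protein do not depend on the scaling between libraries. *Col1a1* to *Col1a2* was 1.20, 1.17, 1.23 and 1.13 by FPKM, and *Col4a1* to *Col4a2* 1.87, 1.92, 1.94 and 1.98. These were the steadiest of the 11 pairs compared, with a highest over lowest ratio of 1.09 and 1.06. In other pairs the E18.5 wild type library stood apart from the other 3. There *Col5a1* to *Col5a2* was 0.614 against 0.832 to 0.889 elsewhere, *Col9a1* to *Col9a3* 0.631 against 0.302 to 0.386, *Col11a1* to *Col2a1* 10.3 against 4.75 to 5.02, and *Col8a1* to *Col8a2* 0.738 against 0.240 to 0.340. In each of these 4 pairs the chain that was low in E18.5 wild type had the higher GC content of transcript, for example 59.1% in *Col8a2* against 46.8% in *Col8a1*. These 4 had the largest departures of the 11 pairs. Of the 10 pairs whose ratio in E18.5 wild type lay outside the range of the other libraries, the low chain had the higher GC content in 8 and the lower in 2. The 2 were *Col3a1*, with 52.5% against 58.9% in *Col1a1*, and *Col1a2*, with 55.7% against the same 58.9%.

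Smaller departures were seen in *Col4a5* to *Col4a6*, at 2.22, 2.31, 2.92 and 2.43, *Col3a1* to *Col1a1*, at 1.27, 1.24, 1.06 and 1.29, and *Col6a1* to *Col6a2*, at 0.936, 0.959, 0.826 and 0.975. *Col6a3* to *Col6a1* was 0.357, 0.347, 0.381 and 0.326, and *Col3a1* to *Col5a2*, neighbours on chromosome 1 with 24624 bases between them, 8.84, 8.88, 8.29 and 10.2.

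GC content moved with the E18.5 ratios. Over 37 chains, which share the same 2 libraries, Spearman's rho between transcript GC content and the log2 ratio of mutant to wild type was 0.36 at E18.5, against 0.44 over 13012 rows, and 0.06 over 39 chains at E16.5. Collagen transcripts were rich in GC, with a median of 56.1% against 50.1% over those rows. In the 7 chains with GC content of at least 60%, 4 were at least 2-fold higher and the median was 1.11, where 42.4% of rows in that range were 2-fold higher with a median of 0.90. From 55 to 60% the median of 14 chains was 0.48 against 0.68 over rows, from 50 to 55% that of 9 chains was 0.59 against 0.41, and below 50% that of 7 chains was 0.41 against 0.09. With the trend over all rows with GC content and length subtracted, *Col10a1*, *Col8a2* and *Col25a1* were at least 2-fold higher, where 3.45% of rows were, and the median over chains was 0.23. The part of GC content in the E18.5 values was not tested further.

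**Figure D5:**
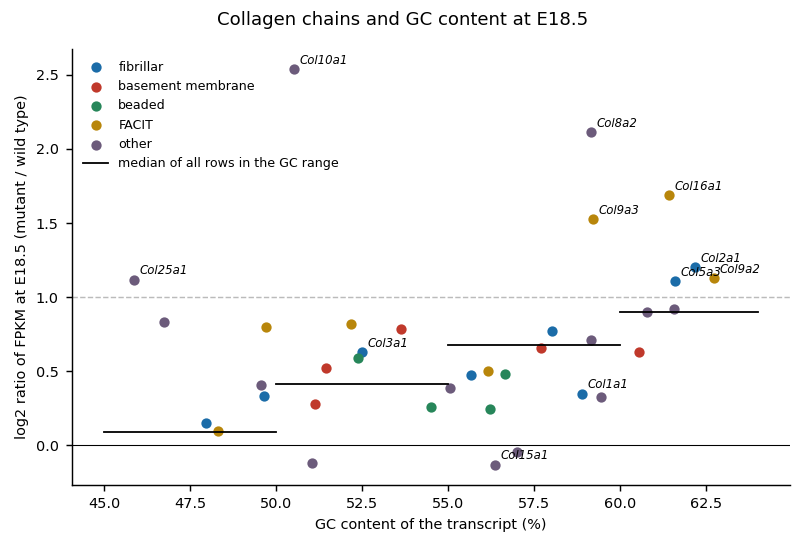
log2 ratio of FPKM at E18.5, Tbx18Gfp/Gfp over wild type (y), against GC content of the transcript in percent (x) for 37 collagen chains, coloured by class; black lines are medians of all rows in 4 ranges of GC content and the dashed line marks 2-fold. The row medians climb from 0.09 to 0.90 with GC content, Col10a1, Col8a2 and Col25a1 stand more than 1 unit above the line of their range, and Col15a1 lies below its own.

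The enzymes and chaperones that make collagen were compared next, from a list of 34 genes of which 31 reached 1 FPKM in a pair. *Serpinh1*, the collagen chaperone HSP47, had 384, 399, 227 and 422 FPKM, lowest in E18.5 wild type and close to level in the others, with log2 ratios of 0.06 at E16.5 and 0.89 at E18.5. *P4ha1*, a prolyl hydroxylase, had 23.4, 25.4, 22.2 and 31.6 FPKM, and *Lox*, which cross-links the fibrils, 102, 92.3, 99.7 and 114 FPKM. At E16.5 none of the 31 was 2-fold different, where 0.481% of all rows were 2-fold higher and 1.17% 2-fold lower. At that stage 24 were higher and 7 lower with a median of 0.12, where 8007 of 14761 rows were higher. At E18.5 28 were higher and 3 lower, where 69.5% of all rows were higher. The median was 0.51, and 0.22 after centring on all rows, and 6 were at least 2-fold higher (15.1% of all rows were). The 5 with the largest ratios were *Plod3*, a lysyl hydroxylase, at 1.28, the cross-linking enzyme *Loxl1* at 1.24, *Fkbp10*, a chaperone, at 1.19, *Pcolce*, an enhancer of propeptide cleavage, at 1.19, and *Leprel2*, a prolyl 3-hydroxylase, at 1.17. None of the 6 was 2-fold higher with the length and GC trend subtracted, where 3.45% of rows were. *Creb3l1*, a transcription factor of the secretory pathway in collagen-making cells, had 29.2, 29.2, 64.4 and 32.1 FPKM. It was the 1 gene of the 31 at least 2-fold lower in the E18.5 mutant, where 2.89% of rows were, and was named after its values were seen.

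Among 10 receptors of collagen, of which 7 were tested at each stage, *Ddr1*, a receptor kinase of epithelia, had 31.4, 30.9, 11.0 and 25.1 FPKM and *Mrc2*, which takes up collagen for breakdown, 22.005, 24.2, 9.16 and 20.5 FPKM, both at least 2-fold higher in the E18.5 mutant, at 1.20 and 1.16, where 15.1% of all rows were. With the length and GC trend removed they were at 0.46 and 0.59, and none of the 7 was 2-fold higher, where 3.45% of rows were. *Ddr2*, the receptor kinase of mesenchyme, had 20.7, 19.3, 19.8 and 22.6 FPKM and was nearly level. Of 15 laminins, nidogens and proteoglycans that share the basement membrane with type IV collagen, none was 2-fold different between genotypes at either stage. Of all rows 0.481% were 2-fold higher and 1.17% 2-fold lower at E16.5, and 15.1% and 2.89% at E18.5. Their median log2 ratio stood at -0.07 at the earlier and 0.39 at the later stage, and 0.10 after centring on all rows, next to 0.06, 0.63 and 0.34 for the type IV chains. *Hspg2*, or perlecan, had 33.8, 31.7, 22.8 and 29.9 FPKM.

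Of the cells that make matrix, the summed level of 5 fibroblast markers was 1133, 1255, 1593 and 1444 FPKM and that of 6 smooth muscle markers 1128, 588, 1303 and 3599 FPKM. At E18.5 the fibroblast sum was lower in the mutant through *Dcn*, and the other 4 were higher, for a median log2 ratio of 0.16. Relative to the median of all rows *Dpt* alone was higher, at 0.10, and the median of the 5 was -0.13. The smooth muscle sum was lower in the mutant at E16.5 and higher at E18.5, while the median log2 ratio of the fibrillar chains was 0.01 and 0.55. The 5 Schwann cell markers summed to 29.8, 27.0, 27.6 and 27.2 FPKM. The part of any of these cells in the collagen values was not tested.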

How the data were processed

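RNA-Seq was read from 4 libraries, each of RNA pooled from the UGS of 3 male embryos. Per the labels and the study's methods, the authors made single-end libraries with a stranded mRNA kit, trimmed reads with Trimmomatic 0.30, aligned them with TopHat2 2.1.0 at default options and estimated expression with Cufflinks 2.2.1, and the submitters' processing notes also name CASAVA 1.8.2. The deposited values are FPKM from the authors' Cufflinks run, and no scaling between libraries beyond that is stated. The genome build and the use of strand in counting are not given in the sources used here, and positions follow the deposited table with starts counted from 1.

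Members were taken by symbol. The members and gene lists were chosen with earlier results of these data known. Depth was estimated from the FPKM of single reads on 15 to 27 olfactory receptor genes per library, and reads per gene, with their 95% exact binomial intervals, follow from it. Log2 ratios were computed for rows with 1 FPKM in 1 library of the pair or more, and counted at 2-fold and 1.5-fold. Every member with at least 1 FPKM was named. Of the biosynthesis, receptor and basement membrane lists, genes at least 2-fold different between genotypes were named, at most 5 per list and stage, with *Serpinh1*, *P4ha1*, *Lox*, *Ddr2* and *Hspg2* in any case. *P4ha2*, the sixth such biosynthesis gene, and *Mia3*, listed at 0 in all libraries, have no further values here. With 1 library per group no test was made. Transcripts were matched by symbol to GENCODE vM21 for 41 members. A lowess trend (span 0.3) on length and GC content, other scalings, filters and pseudocounts were tried as alternatives. The steps were tested on simulated data. The scripts ran in Python 3.11.15 with statsmodels 0.14.6, scipy 1.17.1, pandas 2.3.3, numpy 2.4.6 and, for the plots, matplotlib 3.10.9.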

Additional observations from a re-analysis of the deposited data

Results flagged for a closer look

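*Col22a1*, a collagen of muscle and tendon junctions, went opposite ways at the stages. It was lower in the Tbx18Gfp/Gfp library than in wild type at E16.5, with a log2 ratio of -0.94, and higher at E18.5, with 0.84, a difference of 1.79. Both E18.5 values, 0.314 and 0.564 FPKM, were under 1 FPKM, and in wild type the level was lower at E18.5 than at E16.5 by a log2 ratio of -2.15. The difference between the stages was not tested, since each group is 1 pooled library.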

How the results depend on the processing

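No paired analysis was possible because each genotype and stage is 1 pooled library. No library could be left out for the same reason. At E16.5 the 1 chain at least 2-fold higher became 0 with library FPKM sums made equal, with a minimum of 5 FPKM in either library, with both libraries at 1 FPKM or more, and with a pseudocount of 0.1 or 1 FPKM. Sums made equal also gave 1 chain 2-fold lower, *Col22a1*, and a median log2 ratio of -0.065. At E18.5 the 8 chains 2-fold higher became 4 with sums made equal, with centring on the median and with upper quartile scaling, 5 with a minimum of 5 FPKM or a pseudocount of 1 FPKM, and 3 with the length and GC trend removed. The median of 0.63 became 0.20, 0.34 and 0.38 under those 3 scalings, 0.59 with 1 FPKM in both libraries, 0.55 with a pseudocount of 1 FPKM and 0.23 without the trend. With the E16.5 wild type library in place of the E18.5 one, chosen after the values were seen, 1 chain was 2-fold higher and 2 lower with a median of 0.0486, and the log2 ratios of *Col25a1*, *Col9a3*, *Col9a2* and *Col2a1* turned to -0.54, -0.18, -0.10 and -0.018. In wild type between the stages, the 13 chains 2-fold lower became 7 under the 3 scalings and with a pseudocount of 1 FPKM, and 3, with 1 higher, without the trend. The median of -0.61 became -0.32 with sums made equal, -0.28 with centring, -0.33 with upper quartile scaling, -0.57 with 1 FPKM in both libraries, -0.53 with a pseudocount of 1 FPKM and -0.14 without the trend. In the mutant between the stages, the 1 chain 2-fold higher became 0 with a pseudocount of 1 FPKM, and the median of 0.03 became 0.093 with centring and 0.16 without the trend. Of 201 values of single chains under alternatives, for 23 differences of 2-fold, 106 moved by less than their counting error, 91 by more and 4 changed sign. The FPKM filters decide which chains are counted but leave the ratio of a chain unchanged. Values under the filters could therefore not move, and they are among the 106. Over all rows, the share of 2-fold differences between genotypes at E18.5 that were higher was 84.0%, and 43.7%, 60.1%, 63.9% and 40.0% with sums made equal, centring, upper quartile scaling and the trend removed. In wild type between the stages that share was 13.9%, and 35.4%, 39.8%, 34.2% and 60.4%. The cause of these shifts was not tested. The depth of E18.5 wild type, 29000000 reads, limits the scarce chains most, and pooling hides the spread between embryos.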

Other observations

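Collagens whose rows carry older symbols were outside the family as chosen. *Emid2*, now *Col26a1*, had 50.4, 47.9, 20.2 and 40.0 FPKM in wild type and Tbx18Gfp/Gfp at E16.5 and then at E18.5, with a log2 ratio of mutant to wild type of -0.07 at E16.5 and 0.98 at E18.5. Its E18.5 wild type library was again the lowest. *Gm7455*, now *Col6a5*, had 1.77, 2.08, 1.802 and 2.92 FPKM, highest in the E18.5 mutant. *Dvwa*, now *Col6a4*, had 2.24, 0.772, 0.691 and 0.6995 FPKM, so its E16.5 wild type library was above the other 3, and its log2 ratio was -1.53 at E16.5. The integrin chain *Itga1*, part of a collagen receptor of smooth muscle and fibroblasts, had 9.45, 8.38, 11.0 and 17.9 FPKM, and in the mutant it was higher at E18.5 than at E16.5 by 1.10 on the log2 scale. It was picked for mention after its values were seen.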
